A study of Mus musculus with 6 samples.

Results

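The Serpina3 cluster of the mouse is a row of closely related serpin genes on chromosome 12, and 6 of its genes, Serpina3f, Serpina3g, Serpina3h, Serpina3i, Serpina3m and Serpina3n, are described here in cultured cortical astrocytes. They were chosen by gene name and make up 6 of the 55357 genes listed. RNA-seq was performed on 3 cultures transfected with a plasmid that expresses FLAG-tagged BRAF KE (K499E, an activating RASopathy-associated change) from the CMV promoter, named KE, and on 3 nontransfected cultures labelled naive, named NT. All were astrocytes prepared from the cortex of C57BL/6 embryos at embryonic day 18, and RNA of the KE cultures was taken 48 hours after transfection. NT cultures received no plasmid, so the effect of BRAF KE and that of plasmid transfection cannot be told apart in this comparison. The sources do not say whether the replicates came from separate animals, and p-values measure only the spread between these samples.

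Serpins are protease inhibitors that expose a loop, the reactive centre loop, as bait: the protease cuts the loop and is trapped, and the residues of the loop decide which protease is bound. Humans have a single SERPINA3 gene, which encodes the acute phase protein α1-antichymotrypsin, whereas the mouse has a cluster of copies whose loops differ. Serpina3n is secreted by astrocytes, inhibits granzyme B and leukocyte elastase, and is widely used as a marker of reactive astrocytes, while Serpina3g acts inside cells on cathepsins. Transcription of the family is known to respond to IL-6 family cytokines through STAT3, to IL-1 and TNF, to interferons and to glucocorticoids.

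All 6 genes lie on the plus strand of chromosome 12 in GRCm39. Serpina3f (ENSMUSG00000066363) spans chr12:104180772-104187388, Serpina3g (ENSMUSG00000041481) chr12:104202386-104208203 and Serpina3h (ENSMUSG00000041449) chr12:104216411-104219928. Serpina3i (ENSMUSG00000079014) spans chr12:104229363-104238677, Serpina3m (ENSMUSG00000079012) chr12:104304745-104361078 and Serpina3n (ENSMUSG00000021091) chr12:104372810-104380597. Gencode annotates Serpina3h as a transcribed pseudogene and the other 5 as protein coding. Over aligned residues, the 5 annotated proteins shared between 71.3% (Serpina3i and Serpina3m) and 86.7% (Serpina3f and Serpina3i) of their amino acids, and Serpina3n shared 74.9% to 79.2% with the other 4. The highest of these, 79.2% with Serpina3g, covers only 216 residues, as the annotated Serpina3g protein has 248. Serpina3n aligned with the remaining proteins over 403 to 418 residues.

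The coding stretch of the reactive centre loop shows where the copies part. Each line gives it 5′ to 3′ from the GRCm39 genome, plus strand, inside 1 exon, with capitals at the bases that differ from Serpina3n. The stretches are chr12:104379707-104379796 for Serpina3n, chr12:104186504-104186596 for Serpina3f, chr12:104207331-104207420 for Serpina3g, chr12:104219770-104219859 for Serpina3h, chr12:104234739-104234828 for Serpina3i and chr12:104360028-104360117 for Serpina3m.
Serpina3n: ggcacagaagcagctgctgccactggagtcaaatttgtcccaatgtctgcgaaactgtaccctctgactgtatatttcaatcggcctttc
Serpina3f: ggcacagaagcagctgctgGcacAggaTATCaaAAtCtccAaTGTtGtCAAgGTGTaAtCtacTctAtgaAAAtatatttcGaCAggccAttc
Serpina3g: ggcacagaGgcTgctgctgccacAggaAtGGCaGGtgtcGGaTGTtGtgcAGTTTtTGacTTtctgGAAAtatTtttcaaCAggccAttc
Serpina3h: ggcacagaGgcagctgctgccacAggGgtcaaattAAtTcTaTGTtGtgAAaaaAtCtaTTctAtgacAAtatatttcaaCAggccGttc
Serpina3i: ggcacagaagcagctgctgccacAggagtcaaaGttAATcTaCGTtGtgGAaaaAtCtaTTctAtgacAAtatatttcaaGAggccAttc
Serpina3m: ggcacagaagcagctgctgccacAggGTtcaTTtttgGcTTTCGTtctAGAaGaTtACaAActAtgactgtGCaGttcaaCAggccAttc
The first 9 codons, the hinge of the loop, encode the same residues as in Serpina3n in every member except Serpina3f, where 1 of the 9 differs. Beyond the hinge the sequences diverge. Of the 30 codons of the stretch, 11 encode another residue than Serpina3n in Serpina3i and in Serpina3m, 13 do in Serpina3g and 10 do in Serpina3h, when read in the frame of Serpina3n. Serpina3f differs at 16 codons and carries 1 inserted codon. The pseudogene Serpina3h held 0 stop codons in this stretch and differed from its neighbour Serpina3i at 9 of 90 bases, fewer than in any other pair of members of equal loop length, which differed at 22 to 35 bases.

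The cultures were checked against their labels first. Braf was at 35025, 34933 and 40978 in KE and at 925, 811 and 946 in NT, as their labels imply. Astrocyte markers were abundant, at a summed normalized count of 205902 to 212360 in KE and 148755 to 157935 in NT, with 8 of 12 called higher and 2 lower. Only 1 of them was called lower without a variance trend, and without KE replicate 1, KE replicate 3, NT replicate 2 or NT replicate 3. All 15 microglia markers were called lower in KE, with a median log2FC of -3.31 and sums of 5575 to 7705 in KE and 45219 to 53227 in NT. Of 8 oligodendroglial markers tested, 6 were called lower and 1 higher, with sums of 29491 to 34521 in KE and 37701 to 38062 in NT. The number called lower was 4 without a variance trend, without KE replicate 3 and without NT replicate 2. It was 5 without KE replicate 1 and without NT replicate 1. Both lists moved in the direction of Serpina3n and Serpina3h described next, and their part in those lower levels was not tested. Of 8 hepatocyte markers, Ahsg, Fgb, Hnf4a and Serpina1a were listed at 0 in all cultures, Apoa2 was tested and not called, and the list summed to 27.5 to 31.3 in KE and 15.3 to 24.1 in NT. Neuronal marker sums were 1859 to 2053 in KE and 1661 to 2148 in NT, and endothelial and mesenchymal sums 2087 to 2264 and 1854 to 2069.

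Serpina3n was by far the most abundant member, and its RNA was lower in the KE cultures. Its normalized counts were 30781, 35793 and 33936 in KE replicates 1, 2 and 3, and 40591, 39803 and 43945 in NT replicates 1, 2 and 3. Every KE culture was below every NT culture. The means were 41446 ± 2199 for NT and 33503 ± 2534 for KE (SD over 3 cultures each), so KE held 80.8% of the NT level. The log2 fold change (log2FC) on the log2(normalized count + 1) scale was -0.31 (standard error 0.071, 95% interval -0.47 to -0.15, adjusted p = 0.0041 from limma over the 15280 genes with a mean of at least 10). The call held under each of 15 alternative settings, where the log2FC lay between -0.39 and -0.25 and the adjusted p from limma between 8.3e-04 and 0.024. In these bulk cultures, fewer cells of a type and less RNA per cell cannot be told apart.

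Serpina3h, the transcribed pseudogene, was also lower in KE. It measured 25.2, 18.8 and 20.8 in KE replicates 1, 2 and 3 and 38.7, 43.3 and 30.6 in NT replicates 1, 2 and 3. The groups did not overlap. The mean fell to 57.6% of NT, from 37.5 ± 6.45 to 21.6 ± 3.25 (SD, n = 3 each), with a log2FC of -0.77 (standard error 0.26, 95% interval -1.34 to -0.19, adjusted p = 0.031 from limma). This call depended on single cultures: the adjusted p from limma was 0.077 without KE replicate 2, 0.071 without KE replicate 3, 0.080 without NT replicate 1 and 0.11 without NT replicate 2, while the log2FC stayed between -0.90 and -0.66. It was also lost when no filter on low genes was applied (adjusted p = 0.076).

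Serpina3f had a higher mean in KE, but the difference did not pass the test. Its normalized counts were 81.9, 96.2 and 97.4 in KE and 53.6, 89.7 and 34.2 in NT, in the order of the replicates. NT replicate 2 lay within the range of the KE cultures, and the other two NT cultures lay below all of them. The log2FC was 0.73 (standard error 0.29, 95% interval 0.080 to 1.38 before adjustment, adjusted p = 0.058 from limma). Without NT replicate 2 the log2FC was 1.08 (adjusted p = 0.0043) and without NT replicate 3 it was 0.40 (adjusted p = 0.20), so the size and the call both depended on which NT cultures were counted. Quantile normalization gave 0.86 (adjusted p = 0.026).

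Serpina3i, the second most abundant member, showed no difference that passed the test. It measured 277, 326 and 240 in KE replicates 1, 2 and 3 and 335, 288 and 272 in NT replicates 1, 2 and 3, and the groups overlapped. The log2FC was -0.09 (standard error 0.13, adjusted p = 0.60 from limma), and its 95% interval, -0.39 to 0.20, also contains the value of Serpina3n. Without KE replicate 3 its sign turned, to 0.02 (adjusted p = 0.94).

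Serpina3g and Serpina3m were close to the limit of detection and did not reach the mean of 10. Serpina3g was at 2.71, 7.50 and 3.62 in KE and 1.98, 5.17 and 1.91 in NT, and Serpina3m at 6.32, 5.003 and 8.15 in KE and 2.97, 4.14 and 4.78 in NT. Taking the most frequent low value of a culture as the worth of 1 read, these correspond to approximately 2 to 6 reads per culture for Serpina3g and 3 to 9 for Serpina3m. All KE values of Serpina3m lay above all NT values, whereas those of Serpina3g overlapped. When genes of every level were fitted, the log2FC was 0.59 for Serpina3m (95% interval -0.43 to 1.61, adjusted p = 0.41 from limma over 25499 genes). For Serpina3g it was 0.48 (95% interval -0.67 to 1.64, adjusted p = 0.58 from limma). Neither a rise nor a fall was detected in these 2 genes at this depth.

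**Figure D1:**
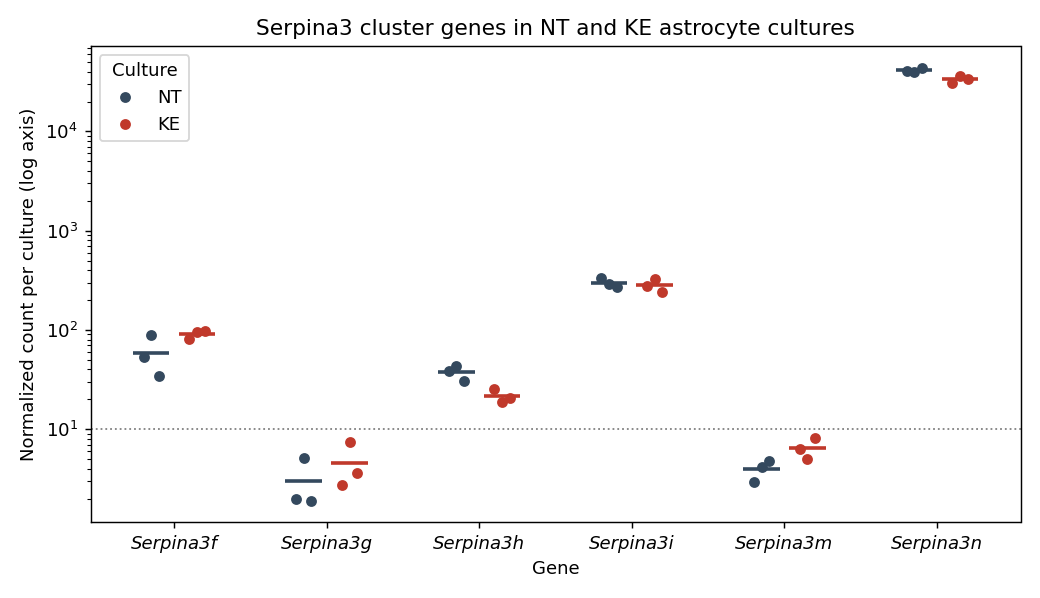
Normalized count of each Serpina3 gene (log axis) in the 3 NT cultures (dark) and the 3 KE cultures (red), with a bar at each group mean and a dotted line at 10, the mean needed for testing. Serpina3n stands at 30781 or above in every culture, and Serpina3g and Serpina3m stay under 10.

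Of the 4 members tested, 2 were called lower in KE, 0 were called higher and 2 were not called, with a median log2FC of -0.20. Over all genes tested, 51.3% were called in either direction and the median log2FC was 0.0018. Of these 15280 genes, 3870 were called higher and 26.0% were called lower. These shares are also the background for the counts of every other group of genes given here. In 2 of the 4 members the values of both groups were fully separate, against 59.9% of all genes tested. With 4 members, the share called is close to that background. Only 1 member was called lower without KE replicate 2, KE replicate 3, NT replicate 1 or NT replicate 2, and without NT replicate 2 another 1 was called higher. Both called members were lower, and the log2FC of the 4 ran from -0.77 for Serpina3h to 0.73 for Serpina3f, which was not called.

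**Figure D2:**
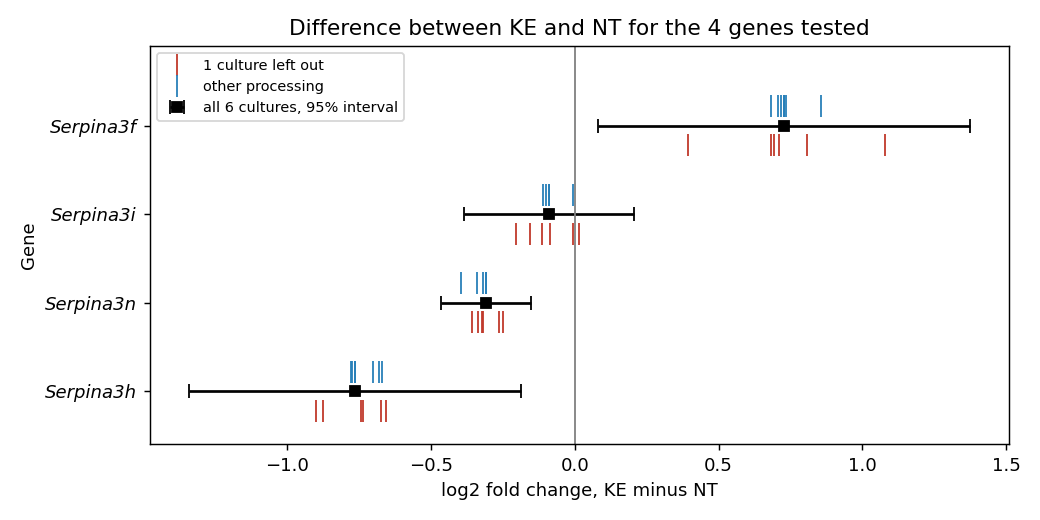
log2FC between KE and NT (horizontal axis, log2 scale) of the 4 Serpina3 genes tested, with black squares and 95% intervals for all 6 cultures, red ticks below for fits that leave out 1 culture and blue ticks above for other processing. The values of Serpina3n lie between -0.39 and -0.25, and those of Serpina3f spread from 0.40 to 1.08.

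Because the copies resemble each other, the separation of their reads was examined. Of the runs of 31 bases in the canonical transcript of a member, the share also found in another listed gene was 61.7% for Serpina3g, 42.8% for Serpina3h, 27.4% for Serpina3f, 24.8% for Serpina3i, 20.0% for Serpina3n and 15.9% for Serpina3m. Serpina3h shared 26.8% with Serpina3i and 26.9% with Serpina3g. For Serpina3g, 55.7% was shared with Gm56487, a pseudogene annotated inside its span, which was at 2.97 in NT replicate 1 and listed at 0 in the other 5 cultures. Serpina3n, far more abundant than the other members, shared 5.4% of its runs with Serpina3f and 5.4% with Serpina3g. Of the runs of Serpina3m, 2.28% were also found in Serpina3n. Levels of the members other than Serpina3n are therefore uncertain to the extent that reads could be divided among copies. The share of runs in other genes was largest for Serpina3g and Serpina3h. Whether this division contributed to the differences of any member was not tested.

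The sum over all 6 members does not depend on how reads were divided among them. The 6 members summed to 31174, 36247 and 34306 normalized counts in KE and to 41024, 40234 and 44288 in NT, a ratio of 0.81. Serpina3n supplied 98.7% to 98.9% of this sum in KE and 98.9% to 99.2% in NT. The other 5 members summed to 393, 454 and 371 in KE and to 432, 431 and 344 in NT, a sum that still depends on reads shared with Serpina3n. These ranges overlapped and the ratio of the means was 1.01, between 0.94 and 1.05 when 1 culture was left out. Among these 5, the mean of Serpina3f was higher in KE and those of Serpina3h and Serpina3i were lower, of which only the difference in Serpina3h passed the test.

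Levels were compared between genes per kilobase of annotated transcript. Serpina3n had 18412 ± 977 normalized counts per kb in NT and 14884 ± 1126 in KE (SD, n = 3 each), which ranked 75th and 87th among the 15240 tested genes with an annotated length. Serpina3i followed at 130 ± 14.3 in NT and 123 ± 18.9 in KE, so that Serpina3n exceeded it 141 times in NT and 121 times in KE. Serpina3h at 30.6 ± 5.26 and Serpina3f at 25.9 ± 12.3 per kb came next in NT and did not differ beyond their spread. In KE their values did not overlap, with Serpina3f at 40.2 ± 3.78 and Serpina3h at 17.6 ± 2.65 per kb. Serpina3g and Serpina3m lay between 1.13 and 2.22 per kb on average in both groups, and their values overlapped with each other. In NT the mean level of Serpina3n was 711 times that of Serpina3f, and in KE it was 370 times.

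Other genes of the same cluster were nearly silent in these cultures. Serpina3a, Serpina3b, Serpina3j, Serpina3d-ps and Serpina3l-ps were listed at 0 in all 6 cultures, and Serpina3c, Serpina3k and Serpina3e-ps did not exceed 0.99 in any culture. Of the 23 Serpina genes listed beside the 6 members, 5 had a value above 0 in any culture and 0 reached the mean needed for testing. All 6 Serpina1 genes, from Serpina1a to Serpina1f, were listed at 0. The RNA of clade A serpins in these cultures was therefore almost entirely that of Serpina3n.

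The neighbourhood of the cluster showed no common direction. On either side of the Serpina3 genes, the 2 nearest listed genes (Serpina5 and a 5S rRNA on one side, Gm24334 and Gsc on the other) did not reach the mean needed for testing. The highest of them, Gsc, ranged from 0 to 10.5 with a mean of 4.04, a level like that of Serpina3g and Serpina3m, and the other 3 did not exceed 1.04 in any culture. Within 1000 kb of the start of Serpina3n, 14 of 76 listed genes were tested, the 4 members included, of which 4 were called higher, 5 were called lower and 5 were not called, with a median log2FC of 0.06. Dicer1, which encodes the RNase that matures microRNAs, is the nearest tested gene on the far side of Serpina3n, 281 kb away, and was called lower (log2FC -0.39, adjusted p = 0.0037 from limma). At the other end of the window, the interferon-inducible Ifi27l2a was called higher (1.21) and Ifi27 lower (-1.03).

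**Figure D3:**
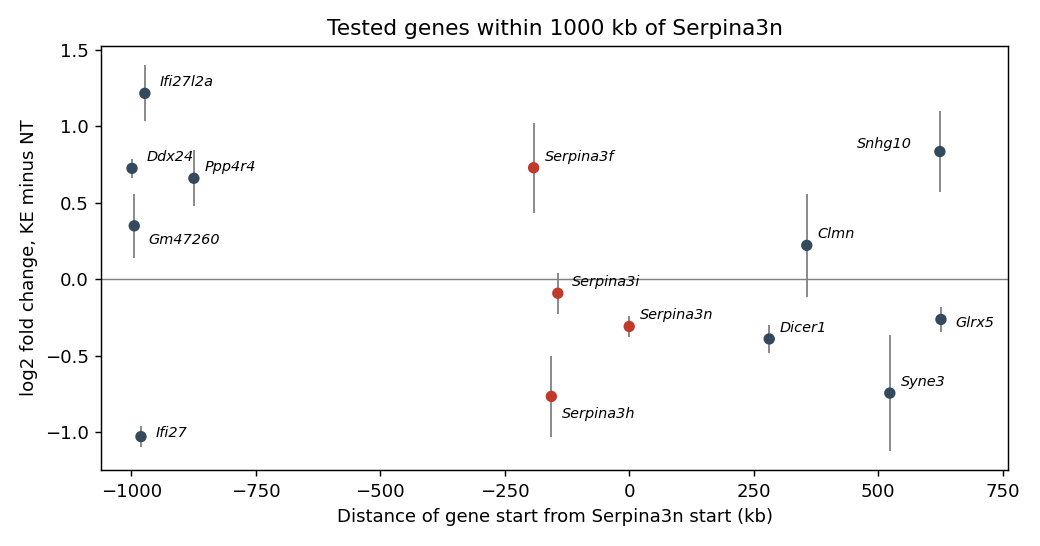
log2FC between KE and NT (vertical axis, log2 scale, bars 1 standard error) of the 14 tested genes against the distance of their start from that of Serpina3n in kb, with Serpina3 genes in red. Tested genes on both sides of 0 stand next to each other, as Serpina3f, which was not called, and Serpina3h do.

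In the 250 bases before the start of each member's canonical transcript, the motif TTCNNNGAA, the palindrome that STAT factors bind, occurred in 4 of 6 members against 7.70% of 21770 protein-coding promoters. In 5 members the window lies directly before the gene, whereas that of Serpina3m, chr12:104353175-104353424, lies inside its span, since a longer transcript starts further upstream, where the motifs were not searched. Serpina3f held it as TTCCTAGAA 90 bases before the start, Serpina3g as TTCCCAGAA 13 bases before, Serpina3h as TTCTCTGAA 233 bases before and Serpina3i as TTCCCAGAA 84 bases before. The motif was not found in these windows of Serpina3m and Serpina3n. In Serpina3f, Serpina3g and Serpina3i the same bases, atca, follow the match, and their windows resemble each other. Matches in these copies are therefore not independent of each other, unlike those counted over all promoters. GAAANNGAA, a core of interferon-response elements, occurred in Serpina3f alone, on the minus strand 96 bases before the start and overlapping the other motif, against 7.55% of promoters. GGANNTTCC (NF-κB, 3.86% of promoters) and TGANTCA (AP-1, 6.17% of promoters) were found in 0 of the 6 windows, with both strands searched. These matches are letters in a window, and members with the first motif included genes that were lower, not called and not tested.

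The genes whose profile over the 6 cultures was closest to that of a member were found by the Euclidean distance between centred log2(normalized count + 1) values. Closest to Serpina3n were Spry4 (distance 0.059), Unk (0.074) and Gemin4 (0.077), each called lower with a log2FC of -0.30, -0.31 and -0.36. For Serpina3h they were Vwc2 (0.10), Ago3 (0.20) and Brinp2 (0.20), all called lower, and for Serpina3i they were Gpn1 (0.12), Tmem191c (0.12) and Rpain (0.14), of which 0 were called. Serpina3f had no profile as near, with Cys1 and Gm34684 at 0.38 and Gm16062 at 0.40, of which 0 were called.

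Serpina3n was set beside 12 other genes used as markers of reactive astrocytes. Of these, 11 were tested and all 11 were called higher in KE, with a median log2FC of 0.87, from 0.26 for S1pr3 and 0.29 for Cp to 1.50 for Lcn2 and 4.10 for Cxcl10. Gfap, the intermediate filament of astrocytes, was among them (0.87), whereas Serpina3n was at -0.31. Under quantile normalization and 75th percentile scaling 11 of 11 were again called higher, while Serpina3n was at -0.39 and -0.32. This list leaves out Aldoc and S100b, which the paper also links to reactive astrocytes. Aldoc was called higher (0.41), and S100b was not called (-0.60, adjusted p = 0.15 from limma). Among 10 tested genes for secreted acute phase proteins, the class to which α1-antichymotrypsin belongs, 4 were called higher and 3 lower, with a median of 0.18. Lcn2 (1.50) and Hpx (1.10) were the highest and Itih3 (-1.32) and Saa3 (-1.26) the lowest of those called, and Lcn2 and Cp belong to both lists. Of the 13 other serpins tested, 5 were called higher, 1 was called lower and 7 were not called, with a median of 0.46 that dropped to 0.22 without KE replicate 2 and to 0.29 without NT replicate 1, with the same counts called. Serpinb9, an intracellular inhibitor of granzyme B (0.80), and Serping1, the complement C1 inhibitor (0.74), were called higher, and Serpinb6b (-2.23) was the only one called lower.

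Signals known to act on Serpina3 genes moved in both directions. From IL-6 family ligands to STAT3, 10 of 17 genes were called higher and 3 lower, with a median log2FC of 0.22. The number called higher was 8 under 75th percentile scaling, without a variance trend and without KE replicate 1 or NT replicate 3. It was 11 under quantile normalization and without NT replicate 2. Over all genes tested, 51.3% were called in either direction. The ligands Il11 (5.02) and Lif (2.62) and the factor Stat3 (0.33) were called higher, and the ligand Osm (-2.89) and the receptor Lifr (-0.60) lower. In the IL-1, TNF and NF-κB list, 9 of 17 were called higher and 5 lower (median 0.24), with Tnfaip3 (1.13) and Myd88 (0.79) at the top and the cytokines Tnf (-3.60) and Il1a (-2.90) at the bottom. Among 12 interferon pathway genes, 8 were called higher and 3 lower (median 1.09). Ifnb1 measured 198 to 235 in KE and was listed at 0 in the 3 NT cultures, Irf7 was higher (3.81), and Irf8 (-2.79) and the receptor gene Ifngr1 (-0.30) were lower. Of 6 glucocorticoid-responsive or receptor genes, 2 were called higher, Tsc22d3 (0.39) and the receptor Nr3c1 (0.20), and 2 lower, Sgk1 (-1.06) and Fkbp5 (-0.60). The number called higher in this list was 1 under 75th percentile scaling, without a variance trend and without KE replicate 1, KE replicate 3 or NT replicate 1, and 3 under quantile normalization and without NT replicate 3. The falls of Osm, Tnf, Il1a, Irf8 and Sgk1, those of Ifi27, Itih3, Saa3 and Serpinb6b above and those of the proteases Ctss, Plau and Ctsh given next lie within the range of the 15 microglia markers, -4.07 to -0.88, and the part of those cells in them was not tested.

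A list of 19 proteases held targets of serpins of this family and related enzymes, of which 7 reached the mean needed for testing. Gzmb was at 0.91 in KE replicate 3 and listed at 0 elsewhere, and the leukocyte proteases Elane and Ctsg were listed at 0 in all 6 cultures. Of the 7 tested, 2 were called higher, Ctsl (0.44) and Plat (0.15, adjusted p = 0.049 from limma), and 3 were called lower, Ctss (-2.91), Plau (-2.43) and Ctsh (-1.12). Only 1 was called higher under 75th percentile scaling, without a variance trend, and without KE replicate 1, KE replicate 3 or any 1 of the NT replicates, while 3 were called lower in each of these fits.

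**Figure D4:**
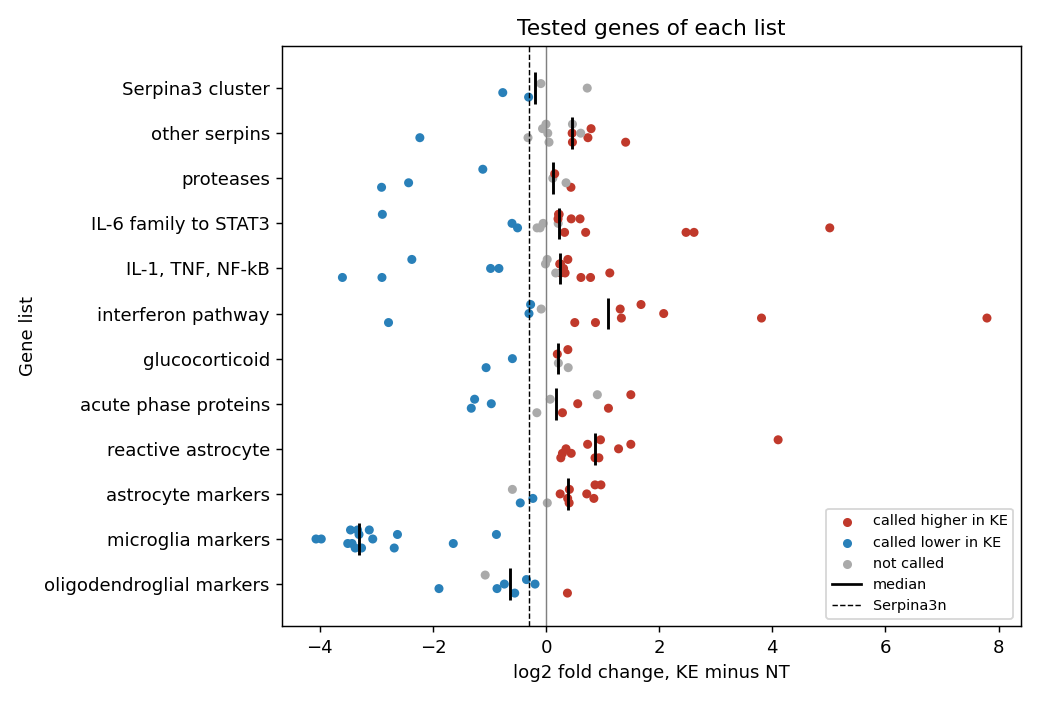
log2FC between KE and NT (horizontal axis, log2 scale) of the tested genes of each list, coloured by call (red higher, blue lower, grey not called), with a black bar at the median and a dashed line at Serpina3n. Serpina3n lies left of all 11 tested genes of the reactive astrocyte list, whose median is 0.87.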

How the data were processed

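The authors deposited a normalized signal per gene and culture: estimated gene counts from Salmon divided by DESeq2 size factors, after Trim Galore and STAR. Their methods give GRCm39, while the labels name GRCh38 although the gene identifiers are mouse; batches are mentioned without being named, and none was modelled. Depth was approximately 24500000 (KE replicate 2) to 34100000 reads per culture. Whole reads were not recovered, so no count test was run. Here a linear model of log2(normalized count + 1) on group was fitted in limma 3.58.1 (R 4.3.3) with a variance trend, after removal of genes whose mean was under 10, which left 15280. P-values are two-sided, with Benjamini-Hochberg adjustment over those genes and a threshold of 0.05. The pseudocount of 1 shrinks fold changes of low genes. The fit was tested on simulated data. Positions, transcripts, loops and promoter windows came from GRCm39 with a later Gencode release (vM39), where 54749 of 55357 identifiers were found. Proteins were translated from the annotated coding sequence and aligned with Biopython 1.88. The loop was taken to end at RPF, since 2 members lack the longer motif first planned. Examples from a list are the 2 highest and 2 lowest called genes and factors named in the background. A gene that this rule would name is not reported here. The members and lists were chosen with earlier results of these data known. Alternatives were pseudocounts of 0.5 and 5, no filter or a mean of at least 50, quantile or 75th percentile scaling, no variance trend, array weights, a replicate block and leaving out each culture.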

Additional observations from a re-analysis of the deposited data

How the results depend on the processing

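Serpina3n kept its direction and its call in all 15 settings. Serpina3h kept its direction in all 14 settings that could be fitted (it lies below a mean of 50) and its call in 9. It lost the call without a filter on low values (log2FC -0.77, adjusted p = 0.076 from limma) and in 4 of the 6 fits that left out 1 culture, where the log2FC ranged from -0.90 to -0.66. Serpina3f gained a call with quantile normalization (0.86, adjusted p = 0.026) and without NT replicate 2 (1.08, adjusted p = 0.0043), and ranged from 0.40 to 1.08 when 1 culture was left out. Serpina3i ranged from -0.20 to 0.02 in those fits, changing sign without KE replicate 3 (0.015, adjusted p = 0.94 from limma), and was called in 0 of 15 settings. The cause of these changes was not tested. The number of genes called, 7844, ranged from 6776 to 8049. Cultures with the same number in KE and NT shared little: their deviations from the group means correlated at 0.059, 0.066 and 0.065, all below 0.1, although each culture correlated best with its own number (other pairs -0.050 to -0.010), so the numbers were not used as pairs. With a replicate block, 8046 genes were called, and the adjusted p from limma was 0.0037 for Serpina3n, 0.046 for Serpina3h, 0.051 for Serpina3f and 0.55 for Serpina3i, with no call of a member changed, and 3 instead of 2 glucocorticoid genes were called higher. Serpina3g and Serpina3m had few reads, and their 95% intervals without a filter reached from -0.67 to 1.64 and from -0.43 to 1.61.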
